A study of Mus musculus with 24 samples.

Results

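Muscarinic and nicotinic acetylcholine receptor genes and the gene of the enzyme that ends the acetylcholine signal were followed in mouse hippocampus and amygdala: the muscarinic receptors Chrm1, Chrm2, Chrm3 and Chrm4, the nicotinic subunits Chrna4, Chrna7 and Chrnb2, and the esterase Ache. Every probe set annotated with exactly 1 of these 8 symbols was taken, whatever its values, which gave 13 of the 45101 probe sets on the array. They belong to 7 of the 8 genes, among 18194 genes with such a probe set. No probe set carries Chrm2 as its single symbol in the annotation used here, so Chrm2 was not analysed. The 13 probe sets are 2 for Chrm1, 1 for Chrm3, 1 for Chrm4, 3 for Chrna4, 2 for Chrna7, 3 for Chrnb2 and 1 for Ache.

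The mice descended from the strains C57BL/6J and A/J, both inbred, and were selected for contextual fear conditioning, a task in which a mouse freezes when it is put back in the place where it was shocked. The 24 arrays fall into 4 groups of 6: amygdala of high freezing mice, amygdala of low freezing mice, hippocampus of high freezing mice and hippocampus of low freezing mice. All groups share that descent, and the labels give neither age, sex nor generation. Whether an array holds 1 animal or a pool is not given either, so the p-values below measure the spread between these arrays, which may be technical in part.

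Acetylcholine reaches both regions mainly from neurons of the basal forebrain and acts on muscarinic and nicotinic receptors. Muscarinic receptors signal through G proteins: the M1 and M3 receptors (Chrm1, Chrm3) act through Gq and phospholipase C and close the M-type potassium channels, while the M2 and M4 receptors (Chrm2, Chrm4) act through Gi and open GIRK potassium channels. Nicotinic receptors are ion channels built from several subunits: Chrna7 forms a channel of its own with a high calcium permeability, and Chrna4 with Chrnb2 forms the main high-affinity nicotine binding site of the brain. Acetylcholinesterase (Ache) splits the transmitter in the synaptic cleft, and both receptor families are known to affect the learning of contextual fear.

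The 4 stretches printed next are the 250 bases before the annotated start of those genes with a called region difference that had a promoter window in RefSeq (build GRCm38.p6), so that the sequences can be set beside the levels. Chrm3 lies at chr13:10360804-10361053 on the minus strand and Chrna7 at chr7:63212527-63212776 on the minus strand. Both were lower in the amygdala. Chrna4 lies at chr2:181039178-181039427 on the minus strand and Ache at chr5:137288004-137288253 on the plus strand, and both were higher in the amygdala. Capitals mark GC boxes, the letters GGGCGG on either strand.
Chrm3: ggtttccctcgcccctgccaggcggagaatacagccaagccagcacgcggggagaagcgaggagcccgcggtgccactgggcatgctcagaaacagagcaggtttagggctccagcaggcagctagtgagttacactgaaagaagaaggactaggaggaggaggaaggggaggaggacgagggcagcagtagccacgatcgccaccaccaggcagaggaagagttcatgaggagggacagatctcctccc
Chrna7: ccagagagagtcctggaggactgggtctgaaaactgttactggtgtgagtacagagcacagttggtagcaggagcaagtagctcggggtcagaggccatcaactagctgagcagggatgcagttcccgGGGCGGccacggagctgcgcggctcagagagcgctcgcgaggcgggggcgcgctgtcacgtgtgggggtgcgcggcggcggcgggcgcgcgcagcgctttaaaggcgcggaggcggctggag
Chrna4: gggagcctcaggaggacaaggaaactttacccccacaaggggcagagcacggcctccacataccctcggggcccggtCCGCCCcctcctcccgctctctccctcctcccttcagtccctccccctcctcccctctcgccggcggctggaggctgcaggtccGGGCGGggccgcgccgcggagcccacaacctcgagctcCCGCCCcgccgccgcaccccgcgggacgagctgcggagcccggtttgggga
Ache: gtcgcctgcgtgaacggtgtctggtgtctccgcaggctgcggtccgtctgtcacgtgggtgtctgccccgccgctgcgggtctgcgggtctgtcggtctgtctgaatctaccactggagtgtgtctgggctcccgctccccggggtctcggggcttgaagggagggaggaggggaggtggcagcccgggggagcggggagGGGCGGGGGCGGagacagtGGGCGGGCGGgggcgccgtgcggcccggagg
The GC box was found 0 times in the Chrm3 window, 1 time in that of Chrna7, 3 times in that of Chrna4 and 4 times in that of Ache, with overlapping matches counted. Of 32851 mouse windows of the same length, 32.7% hold at least 1. The GC content of the windows was 61.2% for Chrm3, 67.2% for Chrna7, 74.4% for Chrna4 and 73.6% for Ache, against a median of 52.4% over all windows. The E-box letters CANNTG occurred 2 times in the Chrna7 window, 1 time in that of Ache and in neither of the others, and 66.2% of all windows hold them. These matches describe letters only. Of the 8 genes, 7 had a window; Chrm1 had none.

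Intensities are linear values, 1 per probe set and array, and were tested as log2(intensity + 16) with limma. Array medians lay between 36.7 and 43.4 units. The dimmest 40% of probe sets by their mean log2 value were left out of the tests, which kept 27022 with a mean of at least 23.3 units and 11 of the 13 receptor and esterase probe sets, from 6 genes. Markers of other cells moved with region, some lists more uniformly than others. Over all 12471 genes tested at 1 probe set each, 31.6% were higher in the amygdala and 24.6% lower. Of the markers of CA field and cortex-like excitatory neurons, 10 of 11 were lower in the amygdala and 1 was higher, with summed levels of 2839 to 4892 units in amygdala arrays and 9572 to 12088 in hippocampal arrays. Dentate granule cell markers were lower for 9 of 9, 3 of which entered the test through the hippocampus, with sums of 1318 to 1777 units against 2824 to 3670.3. Of the markers of central amygdala and striatum, 10 of 11 were higher, 1 of which (Isl1) entered the test through the amygdala. Another of them, Drd2, averaged 23.4 units in the hippocampus, at the edge of the filter level. The sums of this list were 5027 to 12948 units against 1523 to 2043. Thalamus markers were higher for 7 of 8 and lower for 1. Of those higher, 1 (Tnnt1) entered the test through the amygdala, and the sums were 1190.3 to 5318 units against 619 to 852. All 9 oligodendrocyte markers were higher, with sums of 37132 to 51477 units against 14390.4 to 19526. All 7 choroid plexus markers were higher, 2 of which (Aqp1 and Kcne2) entered the test through the amygdala. The choroid plexus sums were 14381 to 21079 units against 1923 to 13493. Other lists were less uniform. Interneuron markers were higher for 6 of 10 and lower for 3, and astrocyte markers higher for 5 of 7 and lower for 2. Microglia markers were higher for 6 of 8, and blood and endothelium markers for 1 of 4, with none lower. Of 2 tested medial habenula markers, 1 was higher and 1 lower. No marker was listed at 0. In these pieces of tissue, fewer cells of a type and less RNA per cell cannot be told apart.

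The muscarinic receptor genes Chrm1 and Chrm3, whose receptors couple to Gq, were both lower in the amygdala, Chrm1 at 2 probe sets and Chrm3 at 1, with no overlap between the regions. Over all receptor and esterase probe sets, 8 of the 11 tested passed an adjusted p of 0.05 between the regions: 3 higher in the amygdala and 5 lower, in 5 of 6 genes. The probe set of Chrm3, the dimmer one of Chrna7 and the dimmer tested one of Chrnb2 averaged below the filter level in the amygdala. They entered through the hippocampus. Of the other 8, 3 were higher and 3 lower. But 1 of these 3 lower, the second of Chrm1, averaged 23.5 units in the amygdala, at the edge of the level. There 7 of its 12 arrays lay below the level, so its place in the test rested on the hippocampus (86.6 units). The 8 of 11 have to be read against the whole array, where 51.2% of the 27022 probe sets passed (27.1% higher and 24.1% lower), since the tissues differ throughout. With each array centred on its median, 5580 probe sets were higher and 8605 lower, against 7310 and 6522 without centring. The regions did not overlap at 5 of the 11 probe sets, in 4 genes, against 13.2% of all probe sets tested. The 5 include that of Chrm3 and the second of Chrm1, whose places in the test rested on the hippocampus.

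Chrm1, on chromosome 19, encodes the M1 receptor of cortical and hippocampal principal neurons. Its brighter probe set, 1439611_at, had 205, 337 and 466 units as the lowest, median and highest of the 12 amygdala arrays, against 575, 751 and 845 units in the 12 hippocampal arrays. Every hippocampal array was above every amygdala array. The means were 329 ± 79.7 units in the amygdala and 733 ± 73.2 units in the hippocampus (SD, n = 12 each), a log2 difference of -1.15 with a 95% interval of -1.35 to -0.95, 2.21-fold lower (adjusted p = 4.3e-11, limma).

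The second Chrm1 probe set, 1450833_at, showed the same order at lower brightness. It had 4.93, 20.8 and 50.4 units (lowest, median, highest) in the amygdala, against 62.5, 82.8 and 109 units in the hippocampus, again without overlap. The log2 difference was -1.47 (-1.80 to -1.13), 2.76-fold lower (adjusted p = 1.09e-08), but 7 of the 12 amygdala arrays lay below the filter level of 23.3 units, where size depends on the offset. With an offset of 1 it was -2.14 and with an offset of 64 it was -0.80, past the threshold each time. With the group means subtracted, the 2 Chrm1 probe sets went together over the 24 arrays (r = 0.771), which no other pair of probe sets of 1 of these genes did to that degree.

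Chrm3, on chromosome 13, encodes the M3 receptor, which signals through the same Gq route. Its only probe set, 1422258_at, had 1.55, 9.69 and 20.0 units (lowest, median, highest) in the amygdala, against 24.8, 56.6 and 90.0 units in the hippocampus. The regions did not overlap, and all 12 amygdala arrays lay below the filter level, so the probe set entered the test through the hippocampus alone. The means were 10.6 ± 6.93 units in the amygdala and 54.8 ± 15.9 units in the hippocampus, a log2 difference of -1.43 (-1.71 to -1.14; adjusted p = 6.88e-10). Its size is loosely fixed: it was -2.53 with an offset of 1 and -0.67 with an offset of 64.

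Chrm4, on chromosome 2, encodes the Gi-coupled M4 receptor, best known from striatal neurons. Its probe set 1450575_at was below the filter level on all 24 arrays and was not tested. It had 1.07, 2.63 and 13.9 units (lowest, median, highest) in the amygdala, against 1.57, 2.31 and 19.3 units in the hippocampus. No region difference was detectable at this brightness.

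**Figure D1:**
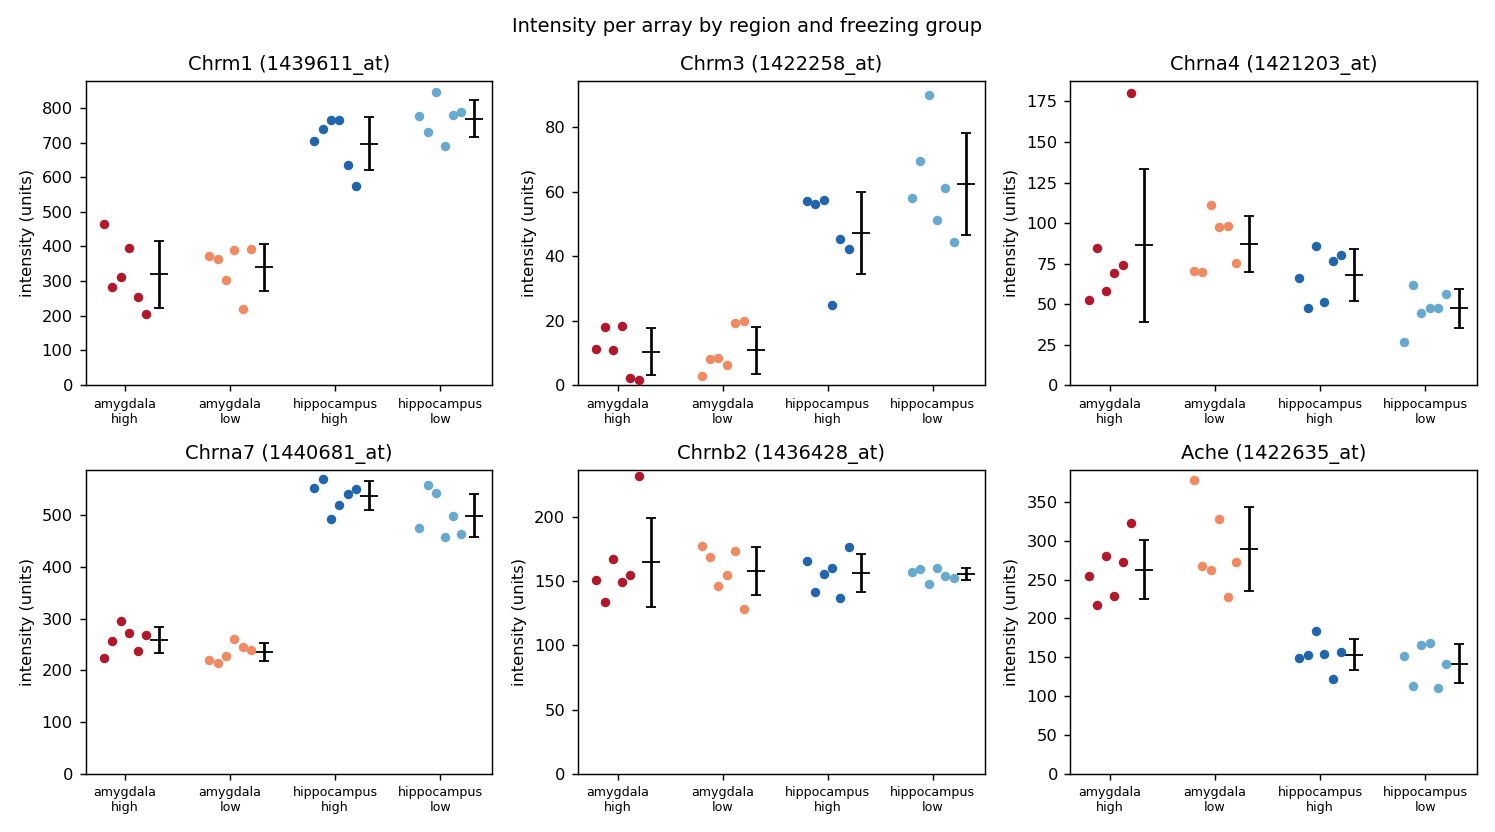
Linear intensity in units on the vertical axis, from 0, for the brightest probe set of the 6 genes tested, by region and freezing group; each point is 1 array, and the bars to the right of the points give the mean and SD of the 6 arrays. Chrm1, Chrm3 and Chrna7 lie lower in both amygdala groups than in both hippocampal groups and Ache higher, with no overlap between the regions, while the 4 groups of Chrnb2 overlap apart from 1 amygdala array at 232 units.

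The nicotinic subunit genes did not move as 1 family. Chrna7 was 2.04-fold lower in the amygdala at its brighter probe set, Chrna4 was higher at 2 of 3 probe sets, and Chrnb2, the partner subunit of Chrna4, passed at neither of its 2 tested probe sets.

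Chrna7, on chromosome 7, encodes the subunit of the homomeric, calcium-permeable receptor. At 1440681_at it had 215, 243 and 296 units (lowest, median, highest) in the amygdala, against 459, 532 and 571 units in the hippocampus. The gap between the regions was wide and the spread within each was small: the means were 247 ± 24.4 units in the amygdala and 519 ± 39.5 units in the hippocampus. The log2 difference of -1.03 (-1.13 to -0.93) had the smallest adjusted p of the 11 probe sets, 9.06e-17. The dimmer probe set, 1450299_at, had means of 21.2 ± 8.73 units in the amygdala and 35.1 ± 12.2 units in the hippocampus, with overlap, and a log2 difference of -0.46 (-0.77 to -0.15; adjusted p = 0.0121). Both probe sets were lower, but within groups they did not go together (r = -0.0128 over the 24 arrays, group means subtracted).

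Chrna4, on chromosome 2, encodes the ligand-binding subunit of the high-affinity receptor, which is known to be abundant in thalamus. At its brightest probe set, 1421203_at, it had 52.3, 74.8 and 180.0 units (lowest, median, highest) in the amygdala, against 26.7, 53.5 and 85.9 units in the hippocampus. The regions overlapped, and the highest value came from 1 array, high freezing array 12. The means were 86.7 ± 34.0 units in the amygdala and 57.6 ± 17.2 units in the hippocampus, a log2 difference of 0.46 (0.18 to 0.74), 1.38-fold higher (adjusted p = 0.00522). Without that array the difference was 0.36 (adjusted p = 0.00679).

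The other Chrna4 probe sets differed between themselves. At 1456354_at Chrna4 had 34.0, 53.6 and 70.3 units in the amygdala, against 2.80, 27.4 and 44.4 units in the hippocampus, a log2 difference of 0.74 (0.45 to 1.02; adjusted p = 5.31e-05), with 4 hippocampal arrays below the filter level. At 1421202_at the means were 42.3 ± 12.1 units in the amygdala and 38.4 ± 11.3 units in the hippocampus, a log2 difference of 0.10 (-0.16 to 0.36; adjusted p = 0.543). With group means subtracted, 1421203_at and 1456354_at did not go together (r = -0.154), while 1421202_at and 1456354_at had r = 0.469.

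Chrnb2, on chromosome 3, encodes the subunit that completes the receptor with Chrna4. At 1436428_at it had 128, 155 and 232 units (lowest, median, highest) in the amygdala, against 137, 157 and 176 units in the hippocampus. The medians nearly coincided, and the amygdala range enclosed the hippocampal one. The means were 161 ± 26.7 units in the amygdala and 156 ± 10.4 units in the hippocampus, and the log2 difference of 0.04 had an interval of -0.11 to 0.18, which as a fold spans 0.930 to 1.13 (adjusted p = 0.698); its sign turned with centring, to -0.04. At 1420744_at, the dimmest of the 11 tested with a mean of 24.4 units, the difference was -0.09 (-0.34 to 0.16; adjusted p = 0.564). The dimmest Chrnb2 probe set, 1441837_at, with a mean of 16.8 units, was below the filter and was not tested.

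Of the other nicotinic and muscarinic subunit genes, 12 of 14 had a probe set (Chrm5 and Chrna10 had none with a single symbol), and none of the 12 passed the brightness filter. Their summed level was 82.8 to 165 units in amygdala arrays and 84.8 to 183 units in hippocampal arrays. Chrna5, an accessory subunit that joins receptors of Chrna4 and Chrnb2, is named here after its values were seen. It averaged 7.95 ± 5.38 units in the amygdala and 28.9 ± 11.2 units in the hippocampus, a log2 difference of -0.88 in the fit without the filter (adjusted p = 4.22e-05). The habenular subunits Chrna3, Chrna6, Chrnb3 and Chrnb4 averaged between 6.67 and 17.1 units in the amygdala and between 3.99 and 14.1 units in the hippocampus.

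**Figure D2:**
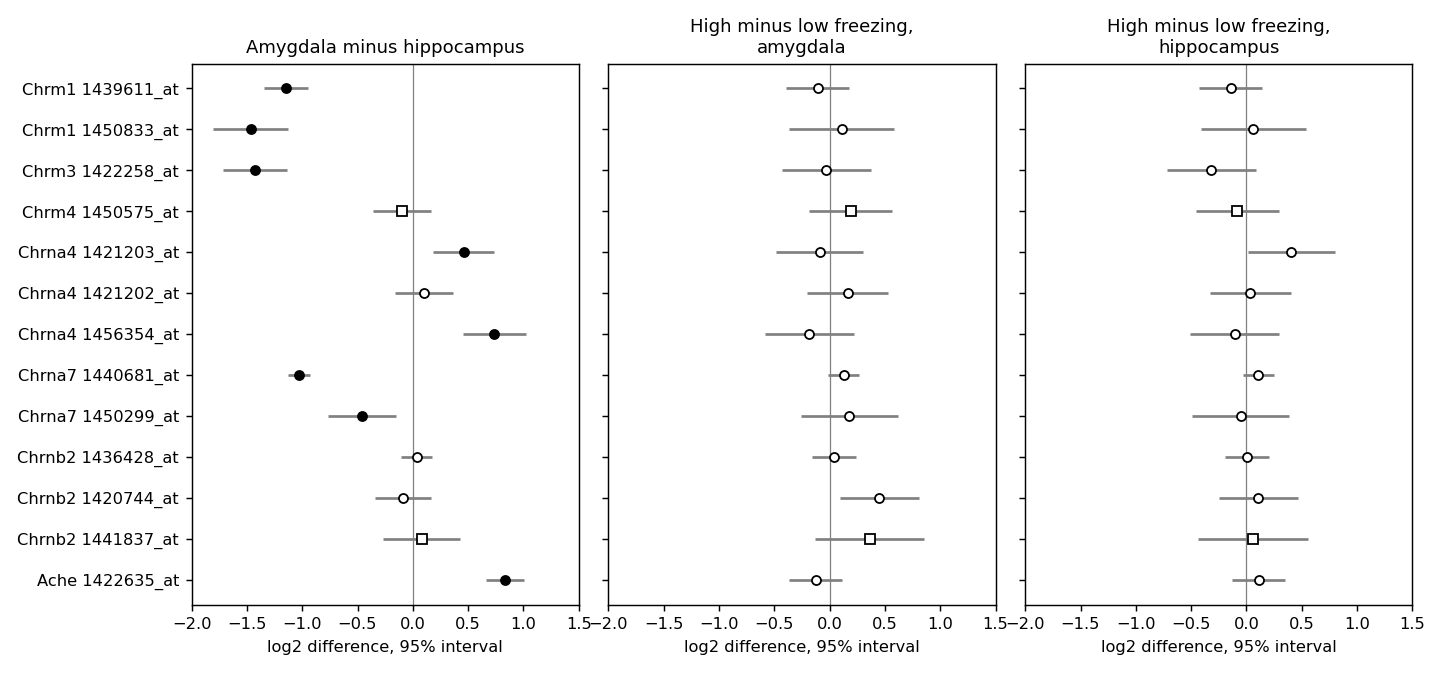
Log2 difference of each of the 13 probe sets with its 95% interval, for amygdala minus hippocampus and for high minus low freezing in each region. Filled circles passed an adjusted p of 0.05, open circles did not, and squares are the 2 probe sets below the brightness filter, from the fit without it. All 8 filled circles are in the region panel, 5 left of 0 and 3 right of it.

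Ache, on chromosome 5, was 1.78-fold higher in the amygdala, opposite in direction to Chrm1, Chrm3 and Chrna7. Its probe set 1422635_at had 217, 270.0 and 378 units (lowest, median, highest) in the amygdala, against 110.4, 152 and 184 units in the hippocampus. No amygdala array was as low as any hippocampal array. The means were 276 ± 46.8 units in the amygdala and 147 ± 22.5 units in the hippocampus, a log2 difference of 0.84 (0.67 to 1.00; adjusted p = 8.77e-10).

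A list of 10 other genes around acetylcholine, which also holds genes of choline and acetyl-CoA metabolism, had 7 tested genes, and Chat and Slc5a7, which define acetylcholine synthesis and choline uptake, were not among them. Of the 7, 6 were higher in the amygdala and none lower, against 56.2% called (31.6% higher and 24.6% lower) over the 12471 genes tested at 1 probe set each. Slc18a3 and Prima1 averaged below the filter level in the hippocampus and entered through the amygdala; of the other 5, 4 were higher. Prima1, which anchors acetylcholinesterase in the membrane, averaged 136 ± 18.3 units in the amygdala and 16.5 ± 5.11 units in the hippocampus, 4.70-fold higher (adjusted p = 3.63e-18). Slc44a1, a choline transporter also used for membrane lipids, averaged 905 ± 108 units in the amygdala and 320.3 ± 44.2 units in the hippocampus (2.74-fold, adjusted p = 3.89e-17). Slc18a3, which loads acetylcholine into vesicles, averaged 45.4 ± 15.3 units in the amygdala and 10.5 ± 6.93 units in the hippocampus (2.32-fold, adjusted p = 8.41e-08).

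The remaining called genes of that list were Acly, which makes acetyl-CoA (1.47-fold higher, adjusted p = 4.52e-13), Pcyt1a, an enzyme of phosphatidylcholine synthesis (1.48-fold, adjusted p = 2.23e-07), and Bche, a second esterase (1.45-fold, adjusted p = 4.13e-05). Chka, choline kinase, did not pass (log2 difference -0.11, adjusted p = 0.0834). Chat, which makes acetylcholine, was below the filter with 17.2 ± 8.58 units in the amygdala and 12.3 ± 8.24 units in the hippocampus. Slc5a7, the high-affinity choline transporter, was also below it, with 20.1 ± 5.87 units in the amygdala and 6.59 ± 3.46 units in the hippocampus, and so was Colq, the collagen tail of Ache, with 11.8 units in the amygdala and 12.3 units in the hippocampus.

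Of the listed markers of cholinergic and related forebrain neurons, all 6 tested were higher in the amygdala. But 5 of them (Isl1, Lhx8, Ngfr, Slc18a3 and Zic4) averaged below the filter level in the hippocampus and entered the test through the amygdala, so the count is no support. The other, Ecel1, averaged 268 ± 44.5 units in the amygdala and 28.8 ± 5.64 units in the hippocampus. The list of 10 measured genes summed to 810 to 1236 units in amygdala arrays and 93.1 to 201 units in hippocampal arrays. Isl1, also a striatal factor, had 271 ± 72.5 units in the amygdala and 2.47 ± 2.84 units in the hippocampus. Lhx8, a factor of cholinergic neuron development, had 157 ± 29.8 units in the amygdala and 4.11 ± 3.75 units in the hippocampus. The defining marker Chat stayed at the low level given before, with a log2 difference of 0.24 in the limma fit without the filter (adjusted p = 0.295). The part of such cells in the Ache difference was not tested, nor that of the oligodendrocyte and striatal markers that moved with region.

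Of 8 tested genes that chaperone nicotinic receptors or bind them as Ly6-type modulators, 1 was higher in the amygdala and 3 were lower, a share close to the 56.2% called over all genes, with a median log2 difference of -0.08, against 0.04 over all genes. Lypd6b was 1.47-fold higher (adjusted p = 4.13e-07), while Lypd6 was 1.33-fold lower (adjusted p = 5.36e-07), Ly6e 1.24-fold lower (adjusted p = 8.95e-05) and Ly6h 1.30-fold lower (adjusted p = 0.000864). The chaperones Ric3 and Tmem35a had log2 differences of 0.08 and 0.07 (adjusted p = 0.539 and 0.4), and the modulator Lynx1 had -0.12 (adjusted p = 0.0954).

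Of the Gq and M-current genes downstream of Chrm1 and Chrm3, 9 of 13 tested were lower in the amygdala and 3 higher, with a median of -0.29, against 24.6% lower and 31.6% higher and a median of 0.04 over all genes. Prkca, a protein kinase C, was 2.59-fold lower (adjusted p = 6.48e-17) and Trpc4, a cation channel opened by this route, 2.71-fold lower (adjusted p = 4.15e-15). In the other direction, Plcb4, a phospholipase C, was 4.10-fold higher (adjusted p = 2.02e-14) and Rgs4, which shortens Gq signals, 2.16-fold higher (adjusted p = 1.67e-15). The list around Gi and GIRK channels, the route of Chrm2 and Chrm4, also holds genes of other G protein routes, such as Gnal, which is not a Gi gene. Of its 15 tested genes, 8 were higher and 6 lower, with a median of 0.20, against the same shares over all genes. Rgs9 (5.78-fold higher, adjusted p = 2.68e-16), Adcy5 (3.08-fold higher, adjusted p = 2.73e-15) and Gnal (2.51-fold higher, adjusted p = 1.92e-17) are known for striatal expression, and Adcy1, a calmodulin-activated cyclase of hippocampus and cortex, was 2.80-fold lower (adjusted p = 1.92e-15).

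**Figure D3:**
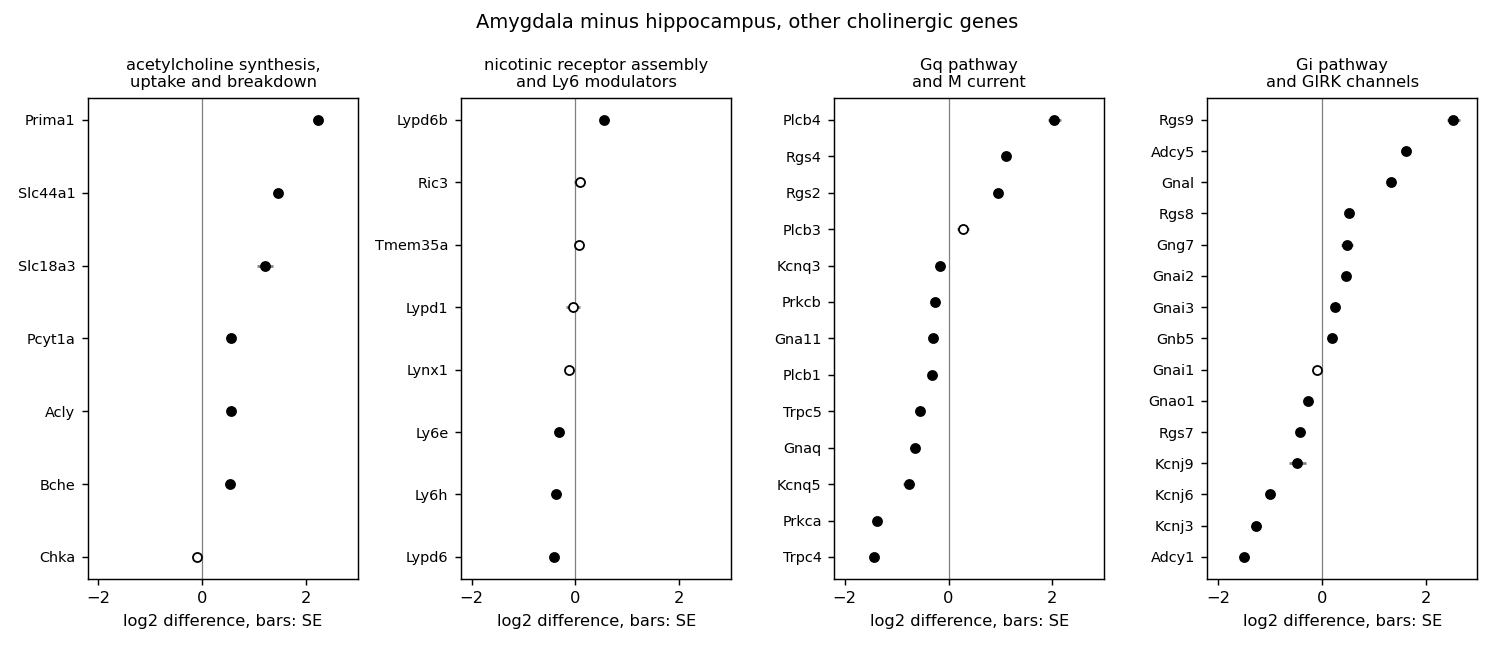
Log2 difference, amygdala minus hippocampus, with its standard error, for the tested genes of 4 lists around the receptors, each at its brightest probe set. Filled points passed an adjusted p of 0.05; 6 of 7 acetylcholine genes lie right of 0, and 9 of 13 Gq and M-current genes passed left of it.

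No receptor or esterase probe set passed an adjusted p of 0.05 between high and low freezing mice. In the amygdala 0 of 11 passed, against 0.0555% of all probe sets (15 of 27022), and in the hippocampus 0 of 11 passed, against 0.0518% (14 of 27022). With 1 array left out, the 15 became 2 to 56 and the 14 became 0 to 33, while both counts of 0 stayed. At an unadjusted p of 0.05, limma gave 1 of 11 in the amygdala and 1 of 11 in the hippocampus. Over all 27022 probe sets it gave 2901 and 3194, so neither share of the 11 exceeds that of the whole array. The smallest adjusted p was 0.333 in the amygdala and 0.403 in the hippocampus. At no probe set did the freezing groups of a region fail to overlap, which happened at 0.551% of probe sets in the amygdala and 0.818% in the hippocampus.

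The unadjusted call in the amygdala was Chrnb2 at 1420744_at. It had 18.7, 30.6 and 34.4 units (lowest, median, highest) in high freezing mice, against 7.56, 20.0 and 27.6 units in low freezing mice. The groups overlapped and 6 of the 12 arrays lay below the filter level. The log2 difference was 0.45 (0.09 to 0.81; adjusted p = 0.333, limma). The brighter Chrnb2 probe set did not show it, with 165 ± 34.6 units in high freezing mice and 158 ± 18.7 units in low freezing mice, a log2 difference of 0.04 (-0.16 to 0.24). Within groups these 2 probe sets had r = -0.169 over the 24 arrays.

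The unadjusted call in the hippocampus was Chrna4 at 1421203_at. It had 47.4, 71.2 and 85.9 units (lowest, median, highest) in high freezing mice, against 26.7, 47.6 and 61.9 units in low freezing mice, again with overlap. The log2 difference was 0.41 (0.02 to 0.80; adjusted p = 0.403, limma). The other Chrna4 probe sets had hippocampal differences of 0.04 (-0.33 to 0.40) and -0.11 (-0.51 to 0.30). In the amygdala 1421203_at had 86.3 ± 47.3 units in high freezing mice and 87.0 ± 17.4 units in low freezing mice, a difference of -0.09 (-0.48 to 0.30). The difference between the 2 regional freezing differences was -0.50 (-1.05 to 0.06; adjusted p = 0.837), and 0 of 11 probe sets passed this interaction test, against 0% of all 27022. At an unadjusted p of 0.05 it gave 0 of 11 and 1637 of all.

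Chrna7 at 1440681_at gave narrow intervals. In the amygdala it had 224, 262 and 296 units (lowest, median, highest) in high freezing mice, against 215, 234 and 262 units in low freezing mice, a log2 difference of 0.13 (-0.01 to 0.27; adjusted p = 0.532). In the hippocampus it had 492, 546 and 571 units in high freezing mice, against 459, 487 and 559 units in low freezing mice, a difference of 0.11 (-0.04 to 0.25; adjusted p = 0.577). Both intervals reach 0 and leave out a freezing difference above 0.27 in either region.

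Chrm1 at 1439611_at had 205, 297 and 466 units (lowest, median, highest) in the amygdala of high freezing mice, against 218, 367 and 391 units in that of low freezing mice, a log2 difference of -0.11 (-0.39 to 0.18). In the hippocampus it had 575, 720.5 and 765 units in high freezing mice, against 691, 779 and 845 units in low freezing mice, a difference of -0.14 (-0.43 to 0.14). Chrm3 in the hippocampus had 24.8, 50.7 and 57.5 units in high freezing mice, against 44.5, 59.6 and 90.0 units in low freezing mice, a difference of -0.32 (-0.72 to 0.09; adjusted p = 0.555). In the amygdala, where every array was below the filter level, the difference was -0.03 (-0.43 to 0.38; adjusted p = 0.979).

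Ache had 217, 264 and 323 units (lowest, median, highest) in the amygdala of high freezing mice, against 227, 270.4 and 378 units in that of low freezing mice, a log2 difference of -0.12 (-0.36 to 0.12). In the hippocampus it had 122, 153 and 184 units in high freezing mice, against 110.4, 146 and 169 units in low freezing mice, a difference of 0.11 (-0.13 to 0.35). No tested gene of the 4 pathway lists described here passed in a freezing comparison.

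At their brightest probe sets, all 6 tested genes had both groups of 1 region above both groups of the other in mean level, the uncalled Chrnb2 included. For Chrm1 at 1439611_at and Chrm3 the order from the top was hippocampus of low freezing mice, hippocampus of high freezing mice, amygdala of low freezing mice and amygdala of high freezing mice. For Chrna7 at 1440681_at it was hippocampus high, hippocampus low, amygdala high and amygdala low, and for Ache amygdala low, amygdala high, hippocampus high and hippocampus low. At these probe sets of Chrm1, Chrm3, Chrna7 and Ache the middle pair of groups did not overlap, and the neighbours within a region did. At Chrna4 1421203_at all neighbouring groups overlapped, with means of 87.0, 86.3, 67.9 and 47.4 units from amygdala low to hippocampus low. At Chrna4 1456354_at the middle pair, amygdala high and hippocampus low, did not overlap (means of 47.2 and 25.6 units). The second Chrm1 probe set had the 2 freezing groups in the opposite order in both regions, with 25.5 units in high and 21.4 units in low freezing mice in the amygdala and 88.9 and 84.4 units in the hippocampus. At the dimmer Chrna7 probe set all neighbouring groups overlapped. At Chrna4 1421202_at, Chrnb2 1420744_at and the 2 probe sets below the filter, the groups were not ordered by region. For Chrnb2 all neighbouring groups overlapped, with means of 165, 158, 156 and 155 units at 1436428_at.

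Chrna4 and Chrnb2 had SDs of 34.0 and 26.7 units over the amygdala arrays and of 17.2 and 10.4 units over the hippocampal arrays. The amygdala levels of some receptor genes ran with sums of cell markers. The brightest markers of the thalamus list in the amygdala were Prkcd (mean 1076 units) and Slc17a6 (590 units). Whether these come from thalamus or from nuclei of the amygdala was not tested. The summed level of 8 thalamus markers ranged over the amygdala arrays, with 1190.3, 2308 and 5318 units (lowest, median, highest) in high freezing mice and 1991, 2793 and 3856 units in low freezing mice. In high freezing array 12, the highest of these, Chrna4 was highest at 180.0 units, Chrnb2 was highest at 232 units, Chrm1 was lowest at 205 units, and the striatal sum was lowest at 5027 units. In high freezing array 7, the lowest in thalamus markers, Chrna4 was lowest at 52.3 units, Chrm1 was highest at 466 units and the striatal sum was highest at 12948 units.

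Over the 12 amygdala arrays Chrna4 rose with the thalamus sum, with Pearson r = 0.836 (permutation p = 0.00062, adjusted p = 0.00558) and Spearman rho = 0.867 (permutation p = 0.00036, adjusted p = 0.00648). Chrm1 fell with it, with r = -0.833 (permutation p = 0.00046, adjusted p = 0.00558) and rho = -0.762 (permutation p = 0.00526, adjusted p = 0.0316). The p-values are two-sided and adjusted over 18 relations, 6 genes against 3 marker sums. Without arrays 7 and 12 of the high freezing mice, the 2 farthest from the median, r was 0.613 for Chrna4 and -0.656 for Chrm1 over the other 10. Within the freezing groups, r was 0.856 for Chrna4 in high freezing mice and 0.732 in low freezing mice, and for Chrm1 it was -0.987 in high freezing mice and -0.753 in low freezing mice.

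Chrm1 also rose with the sum of the CA field and cortex-like excitatory neuron markers, with r = 0.8 (permutation p = 0.00222, adjusted p = 0.0133) and rho = 0.846 (permutation p = 0.0009, adjusted p = 0.0081). Without low freezing array 5 and high freezing array 7, r was 0.643 over the other 10. Against the central amygdala and striatum sum, Chrm1 had r = 0.712 (permutation p = 0.011, adjusted p = 0.0494), rho = 0.573 (permutation p = 0.0546, adjusted p = 0.14) and r = 0.417 without the 2 farthest arrays, so that relation rested on them. Chrna7 ran against the same sum, with r = -0.667 (permutation p = 0.0207, adjusted p = 0.0745), rho = -0.748 (permutation p = 0.00712, adjusted p = 0.032) and r = -0.693 without the 2 farthest arrays. Chrnb2 against the thalamus sum had r = 0.495 (permutation p = 0.095, adjusted p = 0.19) and r = 0.0434 without the 2 farthest arrays, so that relation rested on them. Without array 12, the region difference of Chrm1 was -1.09 on the log2 scale (adjusted p = 2.72e-11), Chrna7 -1.03 (adjusted p = 3.45e-16) and Ache 0.81 (adjusted p = 2.16e-09). The regions do not overlap at these probe sets, so leaving out 1 array could not turn the direction. The part of dissection in the region differences was not tested.

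**Figure D4:**
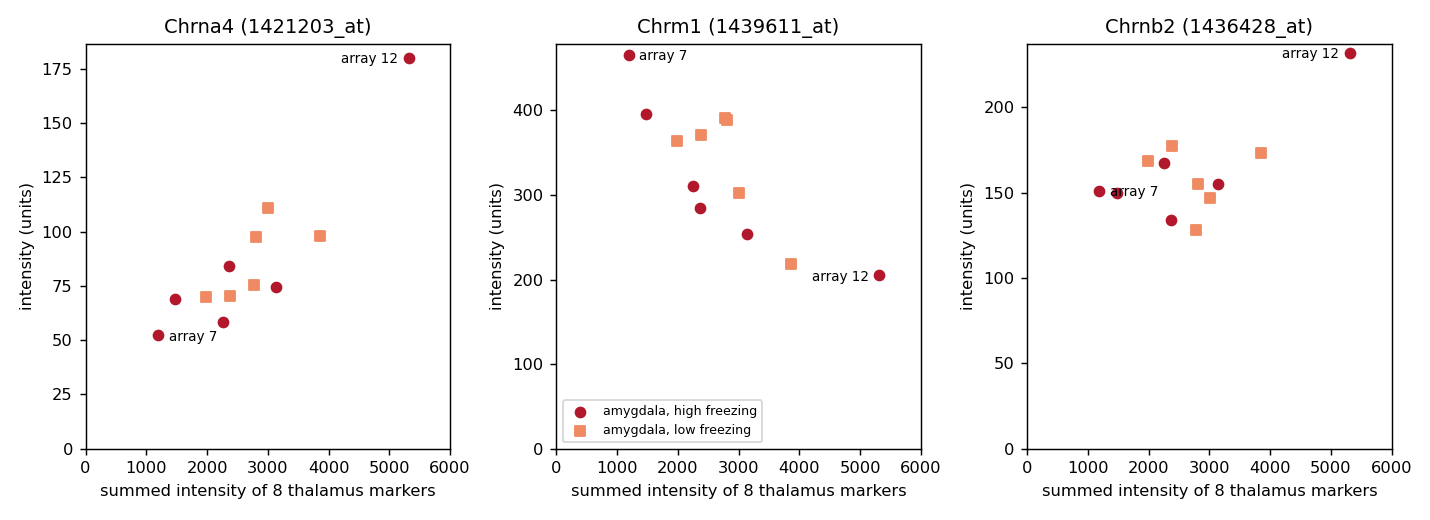
Intensity in units of Chrna4, Chrm1 and Chrnb2 at their brightest probe sets against the summed intensity of 8 thalamus markers, both axes from 0, for the 12 amygdala arrays; circles are high freezing mice and squares low freezing mice. Chrna4 lies higher and Chrm1 lower towards the right, while Chrnb2 is flat but for high freezing array 12.

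Genes with the pattern most like each receptor gene were sought over the 24 arrays, first with the region difference included and then with each group mean subtracted. These values of r are descriptions, and all points share the scaling of their array. With the region difference included, Chrm1 was closest to Itpka (r = 0.984) and Limd2 (r = 0.979), Chrm3 to Tgfb2 (0.95) and Tenm2 (0.948), and Chrna7 to Kctd4 (0.983) and Daam1 (0.981). Ache was closest to Slc48a1 (0.941) and Serf2 (0.938), Chrna4 to Gjc1 (0.79) and Rit2 (0.786), and Chrnb2 to Usp4 (0.667) and Rcsd1 (0.621). With group means subtracted, Chrm1 was closest to Map2k1 (0.931), a kinase of the MAP kinase cascade, and Kalrn (0.921). Chrm3 was again closest to Tgfb2 (0.773) and Ache now to Serf2 (0.733), so 1 gene recurred for each of these, while the closest genes changed for Chrna7 (Gtf2f2, 0.711), Chrna4 (Abhd3, 0.79) and Chrnb2 (Rgs8, 0.725).

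Among the receptor genes themselves, group means subtracted, Chrm1 and Chrna4 had r = -0.629, and Chrna4 and its partner Chrnb2 had r = 0.461. Chrm1 and Chrm3, both lower in the amygdala, had r = 0.19. High freezing array 12 of the amygdala was the highest of all arrays for Chrna4 (180.0 units) and Chrnb2 (232 units). The same array was the lowest for Chrm1 (205 units). How far these values of r rest on that array was not tested.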

How the data were processed

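Gene expression was measured on Affymetrix mouse arrays, 1 colour each. The authors deposited a linear intensity for each probe set; which software made it is not given here. Per the deposited intensity values, the mean of every array trimmed by 2% at both ends was 150.001, as if all had been scaled to 1 target. Symbols came from the platform annotation, updated through Entrez IDs to RefSeq (GRCm38.p6): 34958 probe sets carried 1 symbol, 932 several and 9211 none. limma 3.58.1 in R 4.3.3 was fitted to log2(intensity + 16) of all 24 arrays, with 1 mean per group, an intensity trend and 20 residual degrees of freedom. Left out were 64 control probe sets and the dimmest 40%. The two-sided p-values were adjusted by Benjamini-Hochberg over the 27022 kept, with a threshold of 0.05. Array medians spanned 0.172 on that scale, under the limit of 0.2 for further normalization. The number of arrays, 6 a group, limits the precision. Folds are on the offset scale and understate dim changes. Members and lists were chosen with earlier results of these data known. All probe sets of the genes are named, and up to 4 called genes of other lists, by smallest adjusted p in the region comparison. The fit was run on simulated data with independent noise and planted differences. This checks the code only, since variation shared between probe sets was not simulated.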

Additional observations from a re-analysis of the deposited data

Results flagged for a closer look

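Over the 13 probe sets and 4 groups, 2 of 52 groups of 6 arrays held 1 array whose gap to its nearest neighbour took more of the group's range than Dixon's 95% critical value for 6 allows; chance flags about 1 in 20 groups. Chrna4 at 1421203_at had 180 units in array 12 of the amygdala of high freezing mice. The next array of that group had 84.3 units and the lowest 52.3, a gap of 0.635 of the log2 range. Chrm4 at 1450575_at had 19.3 units in array 7 of the hippocampus of high freezing mice. The next array had 4.99 units and the lowest 1.57, a gap of 0.745 of the log2 range, with all values below the brightness filter.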

How the results depend on the processing

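The 8 region calls stayed at 8 with each of the 24 arrays left out in turn (range 8 to 8). They became 3 of 4 tested with the dimmest 60% left out, 5 of 6 with 1 probe set per gene and 5 of 6 with a gene's probe sets averaged, as fewer probe sets were tested. Freezing and interaction calls were 0 in every alternative run. The title number is shared between regions, and whether it pairs the arrays stays open. The correlation of deviations was weak, between -0.0791 and 0.0865. Among the 6 hippocampal arrays of their freezing group, 5 of 12 amygdala arrays were closest to their own number. That is more than the 1 in 6 of a random match. With the number as a replicate block, random or fixed, region calls were 8 and interaction calls 0, and with the random block freezing calls were 0. Over all probe sets, hippocampal freezing calls, 14, ranged from 4 (1 probe set per gene) to 31 (array weights), and from 0 (without low freezing array 5 or high freezing array 11) to 33 (without low freezing array 2) with 1 array left out. Amygdala calls, 15, ranged from 0 (region fitted alone) to 22 (centring), and from 2 (without low freezing array 1) to 56 (without low freezing array 6) with 1 array left out. Centring gave 7 higher and 8 lower in the hippocampus, against 12 and 2, and 8 and 14 in the amygdala, against 10 and 5; quantile normalization gave 11 and 10 there. Reversed signs were all of uncalled log2 differences. Chrnb2 1436428_at between regions was 0.04, but -0.04 with centring, -0.028 as a gene mean and -0.012 to 0.062 without 1 array (negative without amygdala high freezing array 12). Its hippocampal freezing difference of 0.003 was -0.052 with centring, -0.008 with array weights and -0.029 to 0.036 without 1 array. Its amygdala freezing difference of 0.04 was -0.001 with centring and -0.054 to 0.091 without 1 array. The amygdala freezing difference of Chrm1 1439611_at, -0.11, was 0.001 as a gene mean and -0.222 to 0.004 without 1 array. That of Chrm3, -0.03, was 0.013 with array weights and -0.124 to 0.079 without 1 array. That of Chrna4 1421203_at, -0.09, was -0.298 to 0.006 without 1 array. The causes were not tested. Signal close to background limits Chrm3 and Chrm4 in the amygdala.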
